A study of Mus musculus with 15 samples.

Results

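Replication-dependent histone genes are the genes that supply the bulk of chromatin protein, and their start sites were examined in liver for trimethylation of histone H3 at lysine 4 (H3K4me3), a mark of active and poised promoters. Members were the protein-coding genes of the GENCODE M21 annotation (mm10) on chromosomes 1 to 19 and X whose symbols begin with Hist1h, Hist2h, Hist3h or Hist4, which gave 67 of 21755 protein-coding genes. They comprised 6 genes for linker histone H1, 18 for H2A, 18 for H2B, 12 for H3 and 13 for H4. The rule used names alone and no measured value.

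The livers came from 15 female C57BL/6 mice (substrain C57BL/6J by the methods) of 6 litters, which were put on their diets at an age of 3 months, kept on them for 10 months and are labelled as 12 months old. There were 3 mice in each of 5 groups: standard diet (SD), caloric restriction (CR), high-fat diet (HF), a diet with yellow corn (YD) and a diet with purple corn (RD), the last with anthocyanin pigments and YD without them. Chromatin was taken from formalin-fixed, paraffin-embedded sections (PAT-ChIP), precipitated with an antibody against H3K4me3 and sequenced, and each mouse gave 1 library and 1 list of enriched regions, here called islands. Whole liver was used with no sorting, so fewer cells that carry the mark and less of the mark per cell cannot be told apart.

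These genes are unusual among protein-coding genes. Most have no intron, their transcription by way of the coactivator NPAT rises when DNA is replicated, and their mRNA ends in a conserved stem-loop bound by the protein SLBP in place of a poly(A) tail. Linker histone H1 binds DNA between nucleosomes. Within the nucleosome, H3 with H4 form the centre, and pairs of H2A and H2B flank that centre. Adult liver holds few dividing cells, and several members, among them the genes for H1.2 (Hist1h1c) and for H2B type 2-E (Hist2h2be), are known to be transcribed outside DNA replication as well. The genes lie in clusters: 23 members in chr13:21715763-22043676 (Hist1 group 1), 31 in chr13:23531050-23934851 (Hist1 group 2), 10 in chr3:96219865-96270132 (Hist2) and 2 in chr11:58948920-58956830 (Hist3), while Hist4h4 stands alone at chr6:136801553-136804415.

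The stem-loop is shown because it defines the class and was not used to choose it. A search of the 150 bases after each annotated stop codon in GRCm38 found a 16-base stem-loop in 63 of the 67 members (94%), against 2 of 21513 other protein-coding genes (0.0093%), H2afx and H2bfm. It began 22 to 59 bases after the stop codon, with a median of 31. The 3 commonest forms, with the paired bases in capitals and the loop in lower case, were found in 41, 9 and 8 members.
Hist1h1c and other members, at chr13:23739512-23739527 (plus strand) in Hist1h1c: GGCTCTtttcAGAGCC
The next form, in 9 members: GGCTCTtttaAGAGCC
Hist4h4 and other members, at chr6:136803998-136804013 (minus strand) in Hist4h4: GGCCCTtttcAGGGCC
No such stem-loop was found in that window for Hist1h2an, Hist1h3g, Hist1h4a and Hist2h2be.

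The promoters shown cover the range of the results: the bases before the start sites of Hist1h1c and Hist3h2a, which carried an island in 14 lists, the bases between the divergent genes Hist1h2ae and Hist1h2bg, with an island in 2 lists, and those before Hist1h1t and between Hist1h2bq and Hist1h2ao, with an island in none. Capitals mark the TATA box, searched as TATAAA, and the box of the CCAAT-binding factor NF-Y, searched as CCAAT. They also mark the octamer, searched as ATTTGCAT. Matches were taken on either strand, and all are GRCm38 sequence. The sequences before Hist1h1c, Hist1h1t and Hist3h2a are on their own, plus, strand and the others on the plus strand of the genome.
Hist1h1c, chr13:23738558-23738807: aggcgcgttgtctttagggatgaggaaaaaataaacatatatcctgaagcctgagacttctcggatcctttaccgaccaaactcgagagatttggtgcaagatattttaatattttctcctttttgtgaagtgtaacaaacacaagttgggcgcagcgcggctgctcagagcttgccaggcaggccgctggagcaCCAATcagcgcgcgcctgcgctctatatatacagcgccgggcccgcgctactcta
Hist3h2a, chr11:58954435-58954684: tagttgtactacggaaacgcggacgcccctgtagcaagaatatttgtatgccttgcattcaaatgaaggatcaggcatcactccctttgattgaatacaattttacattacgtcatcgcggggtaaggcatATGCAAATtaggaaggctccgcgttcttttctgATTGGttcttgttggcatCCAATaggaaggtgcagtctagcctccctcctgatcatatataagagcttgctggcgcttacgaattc
Hist1h2ae and Hist1h2bg, chr13:23571221-23571395: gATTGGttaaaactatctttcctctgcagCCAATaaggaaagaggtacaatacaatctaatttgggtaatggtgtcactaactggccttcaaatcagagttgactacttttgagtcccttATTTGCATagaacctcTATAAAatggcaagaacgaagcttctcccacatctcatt
Hist1h1t, chr13:23695564-23695813: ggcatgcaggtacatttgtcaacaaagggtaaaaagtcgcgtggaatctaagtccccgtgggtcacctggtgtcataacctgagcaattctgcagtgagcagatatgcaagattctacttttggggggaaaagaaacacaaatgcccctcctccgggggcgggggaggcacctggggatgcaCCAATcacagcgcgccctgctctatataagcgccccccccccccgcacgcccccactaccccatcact
Hist1h2bq and Hist1h2ao, chr13:21810198-21810464: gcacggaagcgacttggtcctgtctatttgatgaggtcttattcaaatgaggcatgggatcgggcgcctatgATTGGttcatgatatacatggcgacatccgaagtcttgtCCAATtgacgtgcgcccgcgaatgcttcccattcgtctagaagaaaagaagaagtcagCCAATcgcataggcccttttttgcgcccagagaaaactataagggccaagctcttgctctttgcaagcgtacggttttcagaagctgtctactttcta
The last of these is a copy: all 235 bases between Hist1h2ap and Hist1h2br (100%) match it on the opposite strand. In the RefSeq promoter table (GRCm38), 62 members had an entry, and Hist2h2be, Hist2h4, Hist1h3f, Hist1h2bc and Hist1h3a had none. In the 250 bases before the start, a CCAAT box was present in 51 of the 62 members (82.3%), against 39.5% of 17492 protein-coding genes in the promoter table. Each gene was counted once if any of its promoters there had a match. A TATA box was present in 29 (46.8%, against 13.7%) and the octamer in 14 (22.6%, against 1.8%). The octamer was found in 7 H2A and 7 H2B genes and in no H1, H3 or H4 gene. Divergent H2A and H2B genes share the bases between them, so the same match can count for each gene of a pair. The CCAAT box was found for every H1, H2A and H2B gene of the table and for 3 of 12 H4 genes. By the number of lists with an island, the octamer was in 57.1% of the 7 matched members with 12 or more lists, 14.7% of the 34 with 1 to 11 and 23.8% of the 21 with none. The CCAAT box was in 100%, 82.4% and 76.2% of these classes and the TATA box in 57.1%, 41.2% and 52.4%, and no test was made. Motifs were sought before RefSeq starts and islands at GENCODE starts, and whether these coincide for each gene was not checked.

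The lists held 7825 (YD_1) to 33752 (CR_3) islands and covered 0.601% to 3.85% of the genome. They give enrichment scores but no read numbers, so the sequencing depth behind each list is unknown. RD_2 stood apart, with 32131 islands and an island at 34.7% of coding genes, as did CR_3 by its number of islands and HF_1 by the largest share of coding genes. Between 6 and 11 of 11 hepatocyte marker genes had an island in each library, and no list held any of 6 lymphocyte, 5 muscle and neuron or 3 testis markers. Library names took 2 forms, ChIP in 10 libraries and PATChIP in 5 (CR_1, CR_2, HF_2, HF_3 and RD_1), and what the forms mean is not given in the sources used here.

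A gene was counted as marked in a library when an island lay within 1 kb of any of its annotated start sites. Histone genes were marked less often than protein-coding genes at large in 14 of 15 libraries. The number of marked members was 18, 14 and 13 in the SD mice, 10, 18 and 30 in CR, 40, 21 and 30 in HF, 7, 9 and 7 in YD, and 11, 11 and 8 in RD. HF was highest, but 1 CR mouse (CR_3) lay within its range, and the YD mice lay below every SD, CR and HF mouse. In shares of the 67 members, the means were 45.3% ± 14.2 in HF, 28.9% ± 15 in CR, 22.4% ± 3.95 in SD, 14.9% ± 2.59 in RD and 11.4% ± 1.72 in YD (SD of 3 mice). The shares of all protein-coding genes ran in the same order, 51.2% ± 3.53, 43.4% ± 6.92, 39.6% ± 5.98, 31.2% ± 3.46 and 22.8% ± 4.69. The exception to the lower share was HF_1, with 59.7% of members and 54.6% of coding genes.

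**Figure D1:**
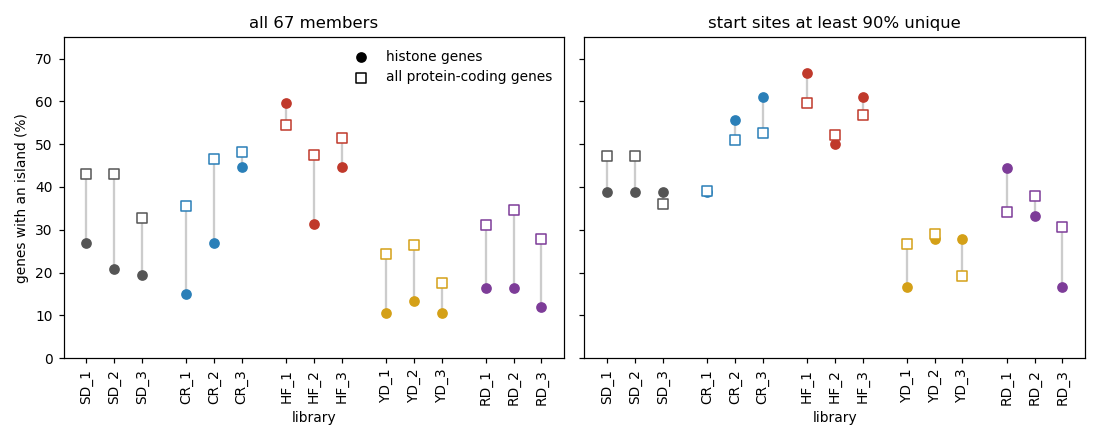
Share of genes with an island within 1 kb of a start site (vertical axis, percent) in each of the 15 libraries (horizontal axis, coloured by diet), for histone genes (filled circles) and all protein-coding genes (open squares). All 67 members are on the left, where 14 of 15 libraries have the histone genes lower, and the 18 members with start regions at least 90% unique are on the right, where 7 of 15 have them higher.

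The difference between HF and the other diets was smaller in lists cut to equal length. The full lists held means of 18700 islands in HF, 20980 in CR, 19750 in RD, 16100 in SD and 9379 in YD, so HF lists were not the longest. The part of list length in the difference was not tested. HF had 17.3 more marked members than the mean of the other 12 libraries, and 4.75 more when every list was cut to its 7825 highest-scoring islands. With these equal lists the means were 13.7 ± 1.53 marked members in HF, 12.7 ± 0.577 in SD, 9.67 ± 4.51 in CR, 6.67 ± 0.577 in YD and 6.67 ± 3.21 in RD (SD, n = 3 mice), so that HF and SD overlapped. The mean shares of coding genes marked in the equal lists ran from 36.3% in HF to 21.1% in YD. Without HF_1, the difference in all islands was 12.5 members. Among the 10 libraries named ChIP, which hold HF_1 alone of the HF mice, it was 27.

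Repeated sequence set histone genes apart from other genes. Reads were 50 bases long and reads with a mapping quality below 1 had been removed, so stretches that occur more than once in the genome can hold few reads. The share of 50-base stretches within 1 kb of the start sites that occur once in the genome averaged 72.2% over the members and 92.8% over coding genes, and 18 members against 86.9% of coding genes reached 90%. Members below 50% had an island in 0.4 lists on average (10 genes), those at 50% to 80% in 2.52 (23 genes), those at 80% to 90% in 4.63 (16 genes) and those above in 6.17 (18 genes). Coding genes in the same classes averaged 0.394, 2.00, 3.66 and 6.20 lists. Among start regions at least 90% unique, 41.1% of members (16.7% to 66.7%) and 41.3% of coding genes (19.2% to 59.7%) were marked on average over the 15 libraries, and members were above coding genes in 7 of 15 libraries. The part of repeated sequence in the lower share of all members was not tested beyond these values.

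**Figure D2:**
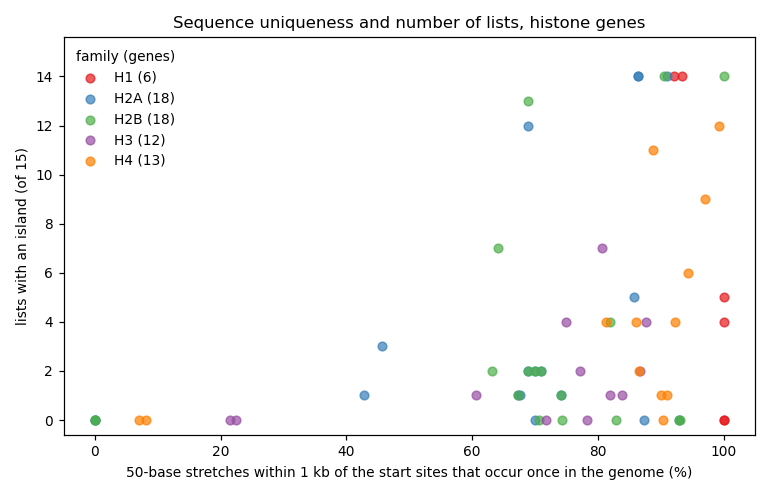
Number of lists with an island (vertical axis, of 15) against the percentage of 50-base stretches around the start sites that occur once in the genome (horizontal axis), with 1 point per histone gene coloured by family. The 8 genes below 25% had an island in no list, and above 60% genes were spread from 0 to 14 lists.

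No member had an island in all 15 lists, against 2059 coding genes (9.5%). An island in 12 to 14 lists was found for 10 members (14.9%, against 16.8% of coding genes), while 36 (53.7%, against 33.7%) had it in 1 to 11 and 21 (31.3%, against 40.0%) in none. The members therefore held fewer genes at either end than coding genes and more in between.

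**Figure D3:**
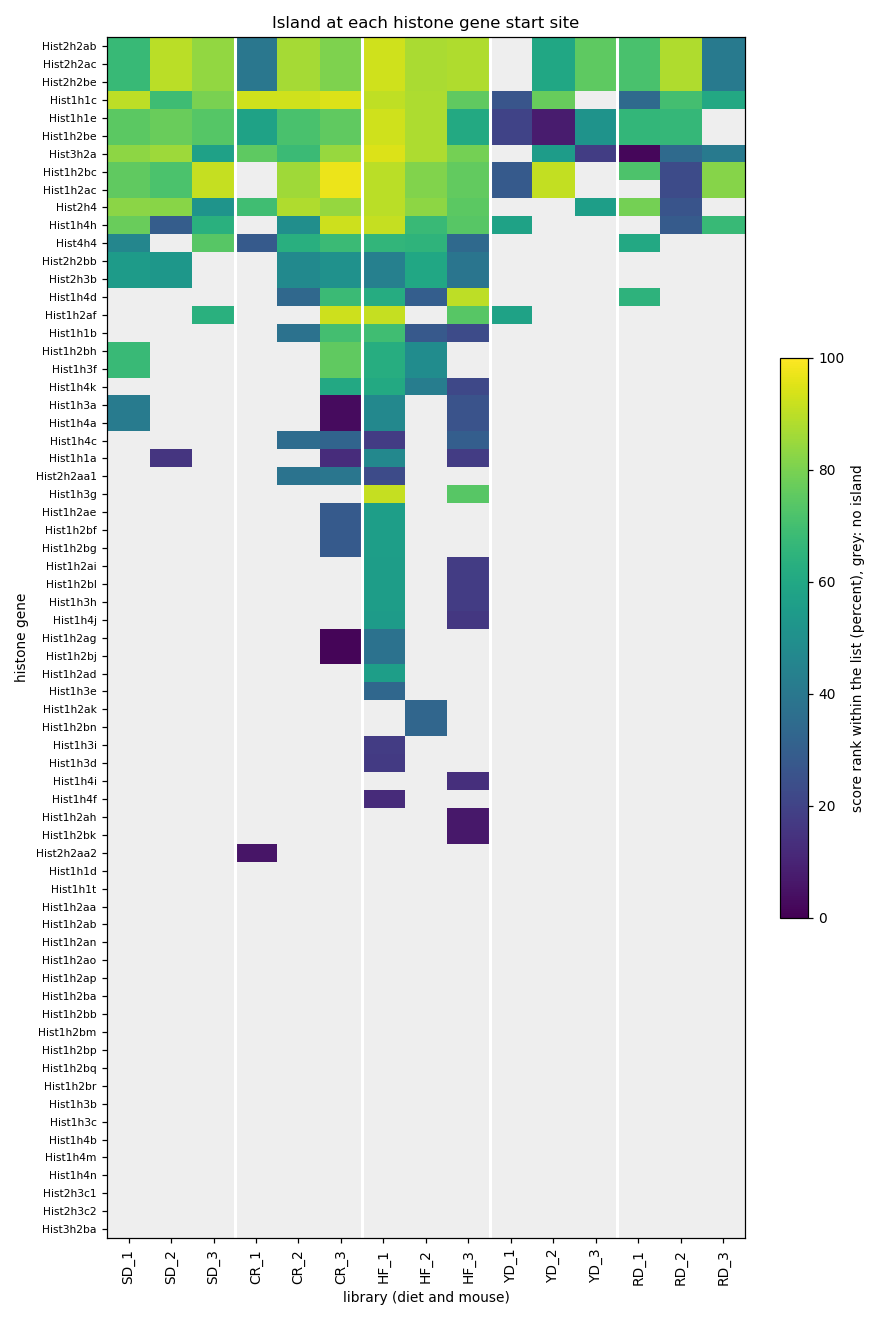
Rank of each histone gene's island within its list (colour, percent, 100 the highest score, grey where no island lies within 1 kb) for 67 genes (rows, ordered by the number of lists) and 15 libraries (columns, by diet). The upper 10 genes are marked in 12 to 14 lists, the lowest 21 in none, and the genes between them are filled mainly in the HF columns and in CR_3.

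The 10 members marked in 12 to 14 lists lay at 6 places. Hist2h2ab, Hist2h2ac and Hist2h2be, which encode H2A and H2B, shared 1 island in each of 14 lists (all but YD_1), and Bola1, no histone gene, starts 156 bases from Hist2h2ab. Hist1h2ac and Hist1h2bc, a divergent H2A and H2B pair, shared 1 island in 12 lists, and Hist1h2bc had another in RD_1. Hist1h1c was marked in 14 lists, all but YD_3, and Hist2h4, for H4, in 12. Hist3h2a was marked in 14, all but YD_1, and shares an annotated start site with Trim17, which is no histone gene. Hist1h1e, the gene for H1.4, and Hist1h2be shared 1 island in 14 lists (all but RD_3), and the annotated start of Hist1h2be lies 1434 bases from that of Hist1h1e and 35.5 kb from its own stop codon. The 2 genes cannot be told apart by this island.

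By family, H1 genes were marked in 6.17 lists on average, H4 in 4.15, H2A in 4.00, H2B in 3.44 and H3 in 1.83. No H3 gene was marked in any YD or RD mouse, nor in SD_3 or CR_1. Mean shares of H3 genes were 38.9% in HF and 11.1% in SD and in CR. Coding genes had 51.2% in HF, 39.6% in SD, 43.4% in CR, 22.8% in YD and 31.2% in RD. In at least 1 library 8 of the 12 H3 genes were marked, against 13044 of 21755 coding genes. Hist1h3d, Hist1h3e, Hist1h3g, Hist1h3h and Hist1h3i were marked in HF lists alone. The H3 genes most often marked were Hist2h3b, in 7 lists, and Hist1h3a and Hist1h3f, in 4 each. H3 start regions averaged 68.9% unique stretches, H2B 68.6%, H2A 65.3%, H4 77.8% and H1 97.6%. The part of repeated sequence in the differences between families was not tested. Of the 6 H1 genes, Hist1h1c and Hist1h1e were in 14 lists, Hist1h1b in 5, Hist1h1a in 4, and Hist1h1d and the testis gene Hist1h1t in none, although the start regions of the last 2 were 100% unique.

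The 21 unmarked members included the testis histones Hist1h1t, Hist1h2aa and Hist1h2ba. Of the 21, 8 were among the 10 members below 50% unique: Hist1h2ao, Hist1h2ap, Hist1h2bq and Hist1h2br, with no unique stretch at all, Hist1h4m and Hist1h4n, at 7.02% and 8.04%, and Hist2h3c1 and Hist2h3c2, at 21.5% and 22.4%. For these, the absence of an island could not be read as absence of the mark. The unmarked members that were at least 90% unique numbered 6, namely Hist1h1d, Hist1h1t, Hist1h2aa, Hist1h2ba, Hist1h4b and Hist3h2ba. The other 7, Hist1h2ab, Hist1h2an, Hist1h2bb, Hist1h2bm, Hist1h2bp, Hist1h3b and Hist1h3c, lay between 69.98% and 87.4%. Hist3h2ba, an H2B gene of the Hist3 cluster, was thus unmarked in every list while its neighbour Hist3h2a was marked in 14.

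Between diets, presence in at least 2 of 3 mice of a diet and in 0 of 3 of the other was counted as gained or lost, with no test, since 3 mice against 3 cannot reach a p below 0.1. HF against SD gained 9 members (13.4%) where 4.69% of coding genes were gained, and lost none (against 0.0735%). The 9 were Hist1h2bl, Hist1h2ai, Hist1h3h, Hist1h4j, Hist1h4k and Hist1h1b in Hist1 group 1 and Hist1h3g, Hist1h4d and Hist1h4c in group 2, of which Hist1h2bl, Hist1h2ai and Hist1h3h were assigned the same island, which covered all 3 genes in HF_1 and ended before Hist1h3h in HF_3. Hist1h4k, Hist1h1b and Hist1h4d were marked in all 3 HF mice and the others in 2. The count was 3 without HF_1, 3 without HF_3, 1 with lists of equal length and 2 when only the higher-scoring part of each list, from its median upward, was used.

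The ranks of these islands were spread widely. Hist1h4k, for H4, ranked at 60.9, 42.5 and 21.5 percent in the HF lists and 60.4 in CR_3 (100 being the highest score of a list). Hist1h1b, for linker histone H1.5, ranked at 69.4, 28.1 and 23 in HF and 37.7 and 70.1 in CR_2 and CR_3. Hist1h4d, for H4, ranked at 61.9, 30 and 90.2 in HF, 33.7 and 68.0 in CR_2 and CR_3, and 64.6 in RD_1. For all 3 genes HF_1 and CR_3 gave ranks above 60, and no SD or YD list held an island. The island of Hist1h3g, for H3, ranked at 91.3 and 74.1 in HF_1 and HF_3, and was 4800 and 5600 bp wide. It covered Hist1h4h and Hist1h2af and ended less than 1 kb before the start site of Hist1h3g, which it did not reach. Hist1h4h itself was marked in 11 lists, among them all SD and HF mice.

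CR against SD gained 4 members (5.97%, against 1.79% of coding genes): Hist1h1b, Hist1h4c and Hist1h4d, which HF also gained against the same SD mice, and Hist2h2aa1. None was lost (against 0.336% of coding genes). The CR genes lie outside the rule for named genes and were chosen after their values were seen. All 4 were marked in CR_2 and CR_3 and none in CR_1, so the count was 0 without either of those mice. YD against SD lost 3 members (4.48%, against 9.46% of coding genes), Hist2h3b, Hist2h2bb and Hist4h4, and RD against SD lost Hist2h3b and Hist2h2bb (2.99%, against 3.92%). Neither comparison gained a member (against 0.0368% of coding genes in YD and 0.221% in RD). The 2 corn comparisons share their SD mice. Hist2h3b and Hist2h2bb shared 1 island, which was present in SD_1, SD_2, CR_2, CR_3 and the 3 HF mice and in no YD or RD mouse, so the YD count was 0 without SD_1 and 1 without SD_2, and the RD count was 0 without either. RD against YD gained no member (against 3.81% of coding genes) and lost none (against 0.244%), with 1 gained when YD_1 or YD_3 was left out.

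In HF lists and in no other, 15 members were marked, 32.6% of the 46 members with any island, against 7.99% of 13044 coding genes with any island. Of the 46, 45 were marked in at least 1 HF mouse (97.8%, against 94.5% of coding genes), and the exception was Hist2h2aa2, marked in CR_1. Of the 15, 10 rested on a single mouse, 5 on HF_1, 2 on HF_2 and 3 on HF_3. These are counts of genes and not of separate islands. Hist1h2bl shared its islands with Hist1h2ai and Hist1h3h, Hist1h2ak with Hist1h2bn, and Hist1h2ah with Hist1h2bk. The islands assigned to Hist1h3g also served Hist1h4h, which was marked in 11 lists. The island assigned to Hist1h2ad also served Hist1h2ae, Hist1h2bg and Hist1h2bf, which had an overlapping island in CR_3. The corresponding numbers of members marked in 1 diet alone were 1 for CR (2.17%, against 1.72% of coding genes) and 0 for SD, YD and RD (against 0.797%, 0.299% and 1.39%). In at least 1 YD mouse 12 members were marked (26.1%, against 56.2% of coding genes), and in at least 1 RD mouse 13 (28.3%, against 70.1%).

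Per gene, Fisher's exact test (two-sided, Benjamini-Hochberg over the 10985 coding genes in 1 to 14 lists, 46 of them members) called no member for HF against the other 12 libraries, for YD against the other 12 or for YD and RD against the other 9. It called 0% of coding genes in the first 2 comparisons, where the smallest p the design allows is 0.0022, and 0.455% as marked less often in the last. At an unadjusted p under 0.05, 8 of the 46 members were higher in HF, as were 1166 of the 10985 coding genes. In YD 1 of the 46 was lower, against 1581 of 10985, and in YD and RD 5 of the 46, against 2963 of 10985. For YD, and for YD with RD, the share of members was thus below that of coding genes. Of the 8 in HF, Hist1h2bl, Hist1h2ai and Hist1h3h were assigned the same island. In HF, Hist1h4k came first (3 of 3 mice against 1 of 12, exact p = 0.00879, adjusted p = 0.388). The 5 lower in corn were Hist2h3b and Hist2h2bb (0 of 6 corn mice against 7 of 9, adjusted p = 0.0892 by Fisher's exact test), Hist4h4 (1 of 6 against 8 of 9, adjusted p = 0.0892), Hist2h4 (3 of 6 against 9 of 9, adjusted p = 0.163) and Hist1h1b (0 of 6 against 5 of 9, adjusted p = 0.163).

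The cluster spans also hold other coding genes, 3 in Hist1 group 1 and 6 in group 2, with islands of their own, such as Zfp184 in 7 lists and Slc17a2 in 15, so that cover is that of the whole span. In group 1, the SD, YD and RD islands lay at no histone start site. Islands covered 8.76%, 3.78% and 5.38% of Hist1 group 1 in the 3 HF mice, and 0% (CR_1) to 3.72% (SD_1) in the other 12. All 3 HF mice lay above the rest there, with HF_2 just above SD_1. In Hist1 group 2 the HF mice had 12.1%, 5.14% and 9.55%, and the other libraries reached from 0.693% (YD_3) to 8.36% (CR_3), so the groups overlapped. Means in Hist2 were 2.70% ± 3.20 in YD, 6.37% ± 4.39 in RD, 10.4% ± 1.17 in SD, 13.6% ± 1.17 in CR and 14.5% ± 2.38 in HF (SD, n = 3 mice). RD_2, at 11%, lay within the SD range, and YD_1 had no island in Hist2. Of the genome, islands covered a mean of 1.6% in HF and 1.37% in the other libraries. The HF difference from the other diets in Hist1 group 1 was 4.13 percentage points, 2.73 without HF_1 and 0.585 with lists of equal length. Within group 1, 14 of 23 members were marked in some HF list and none in an SD, YD or RD list. In CR, only Hist1h4k, Hist1h1b, Hist1h2ag and Hist1h2bj were marked, in CR_2 or CR_3. Mean shares in this group were 31.9% in HF and 7.25% in CR, against 51.2% and 43.4% of coding genes. Coding genes had 39.6% in SD, 22.8% in YD and 31.2% in RD. Some of the 14 shared an island or rested on 1 HF mouse. The share of coding genes marked in HF or CR lists alone was not counted.

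**Figure D4:**
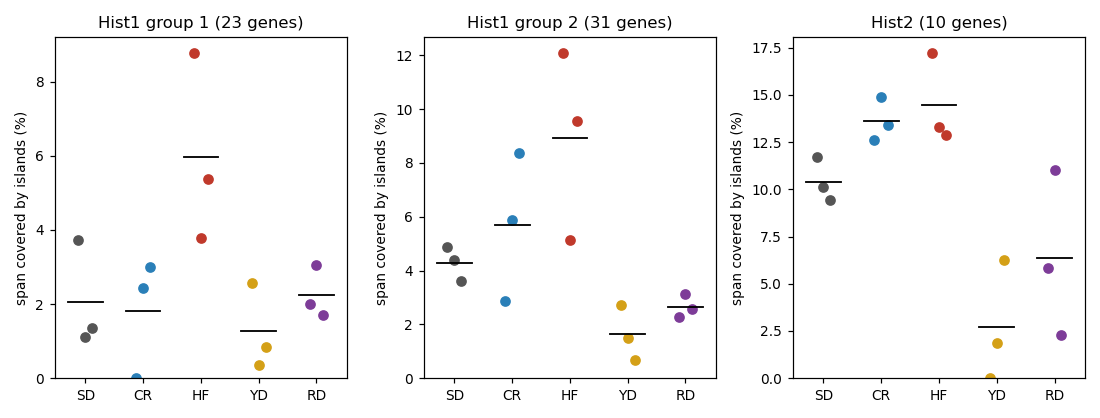
Percentage of each cluster's span covered by islands (vertical axes, each from 0) in the 3 mice of each diet (points) with their mean (line). The HF points in Hist1 group 1 (3.78% to 8.76%) lie above all others, in Hist1 group 2 HF and CR overlap, and in Hist2 the YD points (0% to 6.24%) lie below all SD, CR and HF points.

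Island strength was compared as the rank of the score within its list (100 the highest), since scores of different lists were not scaled to each other. A rank also moves with the length of its list, which differed between diets, and the median rank of marked coding genes was 64.1 in YD and 74.3 in CR on average. Where a member was marked, its median rank was below the median of marked coding genes in 12 of 15 libraries, with means of 59.6 ± 13.3 and 70.5 ± 6.37 (SD over 15 libraries). Widths were much alike, with medians averaging 1927 bp for members and 1880 bp for coding genes, and the member median was wider in 6 libraries, narrower in 6 and equal in 3. Each island at a histone gene served 1.38 (CR_2 and RD_1) to 1.80 (YD_2) members.

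Over the genes with an island in at least 12 lists, which included 10 members at 6 places, limma was fitted with missing lists left out and not given a rank. Ranks in YD and RD together were below those of SD, CR and HF (adjusted p under 0.05) for 4 of the 10 members, Hist3h2a, Hist1h1c and the shared island of Hist1h1e and Hist1h2be, where 10.2% of the 5599 genes were called lower. Differences are in position within a list and not in amount of the mark. The median difference was -26.6 points over the 10 members and -13.4 over all genes in the fit. In YD against SD, Hist1h1e and Hist1h2be were called lower, where 4.52% of 5601 genes were and 0.0357% were called higher. No member was called in CR, HF or RD against SD, in RD against YD (2.43% of genes higher and 0.0179% lower) or in HF against the other diets (0% of 5599 genes called). By limma with no adjustment, members with a p under 0.05 numbered 0, 0, 1, 2 and 3 of 10 in these 5 comparisons. The shares of all genes were 2.86%, 2.93%, 6.87%, 18.6% and 10% in the same order. In YD against SD, 3 of 10 members had such an unadjusted p, against 22.7% of all genes. In the corn diets against the rest, 4 of 10 members did, against 33.5% of all genes.

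With ranks taken among promoter islands alone, 2 of the 6 calls were kept, Hist3h2a and Hist1h1c in the corn diets (limma adjusted p = 0.0127 and 0.0307). The island of Hist1h1e and Hist1h2be then had an adjusted p of 0.112 in YD against SD and 0.0574 in the corn diets.

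Hist3h2a (chr11:58954685-58956830, plus strand) encodes an H2A. Its ranks were 83.0, 85.3 and 57.4 in SD, 75.2, 68.0 and 84.4 in CR, 94.8, 87.6 and 79.0 in HF, 55.2 and 18.3 in YD_2 and YD_3, and 1.60, 34.7 and 41.4 in RD. All 5 corn values lay below the lowest of the others, and YD_1 had no island. The difference of the corn diets from the rest was -48.1 ± 8.60 points (SE, limma adjusted p = 0.0115). It stayed past the threshold with each library left out in turn (adjusted p from 0.00629 to 0.032), and among the 10 libraries named ChIP it was -47.4 with an adjusted p of 0.162. Trim17, which shares this start site, has the same island, so the value cannot be credited to either gene.

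Hist1h1e (chr13:23620629-23622558, minus strand) encodes linker histone H1.4. Its ranks were 74.7, 77.1 and 73.5 in SD, 57.8, 71.1 and 75.7 in CR, 92.7, 87.7 and 60.8 in HF, 20.2, 7.70 and 51.4 in YD, and 66.2 and 66.7 in RD_1 and RD_2. The 3 YD values lay below all others, and the RD values lay among those of CR and HF. YD against SD differed by -48.64 ± 11.03 points (SE, limma adjusted p = 0.0336), and the corn diets together by -28.1 ± 7.64 (adjusted p = 0.0429). Neither call was stable. The first was lost in 7 of 15 fits with a library left out (CR_2, HF_1, HF_2, SD_1, SD_2, YD_1 or YD_2, adjusted p up to 0.116) and the second in 10 (adjusted p up to 0.0869).

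Hist1h1c (chr13:23738808-23740367, plus strand) encodes H1.2. Its ranks were 89.9, 68.9 and 79.8 in SD, 92.9, 92.8 and 94.8 in CR, 90.3, 87.7 and 75.7 in HF, 26.4 and 76.7 in YD_1 and YD_2, and 34.6, 70.2 and 60.5 in RD. CR was highest and closest together, and YD_2 and RD_2 lay within the range of SD. The corn diets were lower by 32.5 points (-32.54 ± 8.53, SE, limma adjusted p = 0.0398), a call that was lost in 10 of 15 fits with a library left out (adjusted p up to 0.109). Hist2h4 had ranks of 51.9 to 89.7 in the 9 SD, CR and HF mice, 55.9 in YD_3 and 79.0 and 25.8 in RD_1 and RD_2, and was not called. The shared island of Hist2h2ab, Hist2h2ac and Hist2h2be had ranks of 67.2, 89.7 and 83.6 in SD, 39.5, 86.7 and 80.8 in CR, 92.9, 87.3 and 88.0 in HF, 59.7 and 75.3 in YD_2 and YD_3, and 71.1, 87.9 and 41 in RD. The HF ranks lay above those of CR and YD and overlapped with those of SD and RD, and no call was made. Bola1 starts 156 bases from Hist2h2ab, so this island cannot be credited to the histone genes alone.

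**Figure D5:**
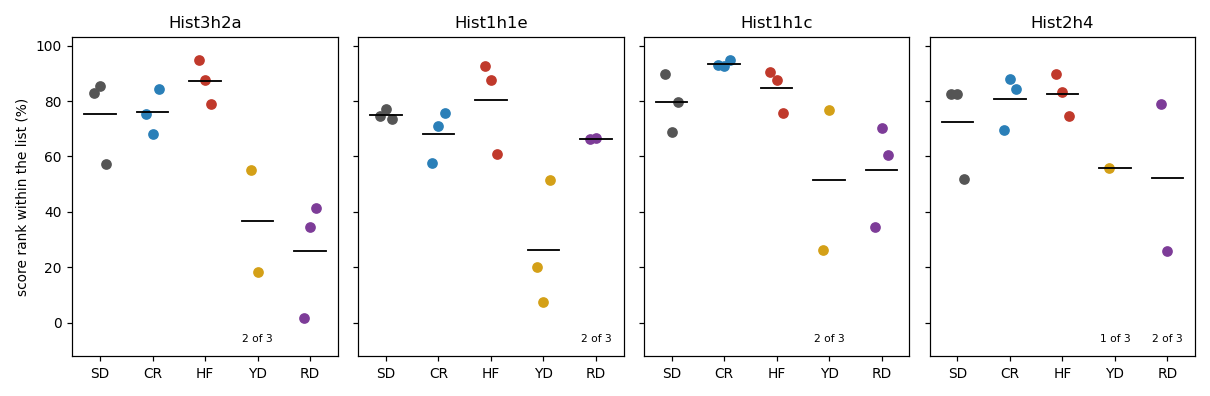
Score rank within the list (vertical axis, percent, 100 the highest score) of the islands at Hist3h2a, Hist1h1e, Hist1h1c and Hist2h4 in the 5 diets, with a point per mouse that had an island, the mean as a line and the number of mice with an island below where it was under 3. At Hist3h2a the YD and RD points (1.60 to 55.2) lie below all others (57.4 to 94.8), and at Hist1h1e those of YD do (7.70 to 51.4, against 57.8 to 92.7).

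For width, 1 member was called in the same fit: the island at Hist1h2bc was narrower in the corn diets by a log2 difference of -0.93 ± 0.24 (SE, limma adjusted p = 0.0362), where 7.34% of 5599 genes were called narrower. Its widths were 1800, 2400 and 2400 bp in SD, 3000 and 4800 in CR_2 and CR_3, 5400, 3800 and 4200 in HF, 2000 and 2000 in YD_1 and YD_2, and 1200, 1600 and 1800 in RD. The corn values overlapped with SD_1. This call was lost in 11 of 15 fits with a library left out, RD_1 among them (limma adjusted p up to 0.0789). Hist1h2ac, which shared the island in 12 lists and had none in RD_1, was not called. By limma with no adjustment, 4 of 10 members had a p under 0.05 for width in the corn diets, against 35.3% of all genes.

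Genes around the members were described from lists of the pathway. Of 22 genes for histone gene transcription and 3′ end formation, 6 had an island in all 15 lists, Npat, Cpsf2, Cpsf3, Cstf2t, Wdr33 and Coil, and none was unmarked throughout. YD against SD lost 5 of them (Slbp, Lsm10, Lsm11, Cpsf1 and Pou2f1), RD against SD lost Lsm10, HF against SD gained Ccne1, and RD against YD gained Slbp, Cpsf1 and Pou2f1. The shares of coding genes changed in these directions were 9.46%, 3.92%, 4.69% and 3.81%. NPAT and coilin organise the nuclear body where histone genes are transcribed, SLBP binds the stem-loop, LSM10 and LSM11 belong to the U7 particle that cuts histone mRNA, and Pou2f1 encodes OCT1, which binds the octamer. Slbp was marked in 10 lists and in no YD mouse.

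The list of histone variants held 11 genes, most of which are also made outside DNA replication. H3f3a, H3f3b and H1f0 had an island in all 15 lists, H2afy2 and H1fx in none, and the 11 genes had a median of 9 lists, against 2 for the members and 3 for coding genes. Of 10 histone chaperones, Npm1 and Daxx were marked in all 15 lists. HF and CR against SD each gained Chaf1b, a subunit of the factor that deposits new H3 and H4 behind the replication fork. YD against SD lost Asf1a. The shares of coding genes changed in these directions were 4.69% in HF, 1.79% in CR and 9.46% in YD.

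Proliferation genes were marked most often in HF and least often in YD, as were the members and coding genes, but less often in CR than in SD. None of 18 was marked in all 15 lists, and on average 13.0% were marked in YD, 20.4% in RD, 37.0% in CR, 40.7% in SD and 79.6% in HF, where coding genes had 22.8%, 31.2%, 43.4%, 39.6% and 51.2%. HF against SD gained 6 of the 18, namely Mki67, Top2a, Mcm2, Mcm6, Aurkb and Bub1 (against 4.69% of coding genes). It lost none (against 0.0735%), and CR against SD gained none (against 1.79%). YD against SD lost Mcm3, Mcm5, Tyms and Plk1 (against 9.46% of coding genes), and RD against SD lost Mcm3 and Mcm5 (against 3.92%). Markers of other liver cells also differed by diet: 22.2% of 6 Kupffer cell markers were marked in HF and 0% in the other diets (0 to 3 genes in a library), and 0% of 5 endothelial markers in YD, 13.3% in RD, 26.7% in CR, 33.3% in SD and 73.3% in HF (0 to 5 genes). Stellate cell markers were marked at 33.3% in HF, 16.7% in SD and 0% elsewhere, and cholangiocyte markers at 25% in CR, 16.7% in HF, 8.30% in SD and 0% in YD and RD, with 0 to 2 of 4 genes of either list in a library. Hepatocyte markers ranged from 84.8% to 100%. The part of cell composition, of proliferation and of the number of islands per list in the histone gene differences was not tested.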

How the data were processed

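The authors aligned 50-base single reads to mm10 with BWA, removed duplicates and reads of mapping quality below 1 with SAMtools, and called islands in each library with SICER in 200 bp windows. Tool names BWA, SAMtools and SICER and the build are from the submitters' processing notes and the methods. The deposited files give each island's position and score, a score that was not scaled between libraries, so that it was used within a list only. Read depth per library is unknown. Each gene took the highest-scoring island within 1 kb of any GENCODE M21 start site. Uniqueness of 50-base stretches was counted over both strands of GRCm38. limma 3.58.1 (R 4.3.3) compared ranks and log2 widths in 7 contrasts (adjusted p under 0.05). The fit designed for genes marked in all 15 lists held no member, so the fit for genes marked in at least 12 lists, missing lists left out, is reported. Fisher's exact test used scipy 1.17.1. Steps were tested on simulated data. The members and gene lists were chosen with earlier results of these data known. Named genes were those unmarked or marked in all lists, gained or lost against SD in HF, YD or RD, past the limma threshold, testis histones and Hist3 and Hist4 members; other named genes were chosen after their values were seen. Replicates were separate mice, and the sources used here give no pairing of them by replicate number. Correlations of marked members by replicate number rest on 3 mice and cannot settle it (3 of 10 diet pairs over 0.1, median -0.22).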

Additional observations from a re-analysis of the deposited data

How the results depend on the processing

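With equal numbers of top-scoring islands per list, the HF excess over the other diets (17.3 marked members) was 4.75, the corn deficit (-12.7) -5.33, the HF excess in extent 0.585 percentage points in Hist1 group 1 (from 4.13) and 2.92 in group 2 (from 5.35), and gained or lost members were 0 in CR, YD and RD and 1 in HF against SD. With islands at or above the median score these were 9.17 members, 1.63 points in group 1, and 0 gained in CR and 2 in HF. Counting separate islands gave an HF excess of 10.7, and start regions at least 90% unique 4.08, with a corn deficit of -4. Libraries named ChIP gave an HF excess of 27 members and 6.79, 8.54 and 9.92 points in Hist1 group 1, group 2 and Hist2. Start sites inside an island gave 0 changes in CR and 1 in RD, a 3 kb distance 14 in HF, 7 in YD, 6 in RD against SD and 1 in RD against YD, and presence in all 3 mice 3 in HF and 0 in CR, YD and RD. The cause was not tested.

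Leaving out 1 library gave an HF excess of 12.5 to 22, a corn deficit of -14.2 to -10.4, and changes of 0 to 4 in CR, 3 to 13 in HF, 0 to 4 in YD and 0 to 3 in RD against SD and 0 to 1 in RD against YD. Extent differences were 2.73 to 5.22, 3.77 to 7.24 and 4.8 to 6.98 points. Member calls by limma were 0 to 2 for rank and 0 to 2 for width over genes in all 15 lists (0 with all libraries), where more genes then qualify, and 1 to 8 and 0 to 5 over genes in at least 12 (6 and 1 with all libraries).

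In the at-least-12-list fit, the following were chosen after seeing the data. The replicate block left 1 of 6 rank calls and 0 of 1 width call, ranks among promoter islands 2, and libraries named ChIP 0 and 0. The replicate numbers name separate mice and are not given as pairs. The all-15-list fit held no member, so its 0 calls with the replicate block say nothing about stability. Fisher's exact test called 0 members in every alternative run. Read depth is unknown, and with 3 mice a diet few differences can pass a test.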
